A study of Mus musculus with 3 samples.

Results

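The genes described here encode the proteins of the 2 ribosomes of a mouse cell, the cytosolic ribosome and the ribosome of the mitochondria. They were chosen by symbol, Rpl, Rps or Rplp followed by a number for the cytosolic ribosome and Mrpl or Mrps followed by a number for the mitochondrial one. This gave 160 genes of 24453 gene symbols, 83 cytosolic and 77 mitochondrial. One further matching symbol, Rps4l, had only a noncoding transcript and was left out. Of the cytosolic genes 49 belong by name to the large (60S) subunit, 31 to the small (40S) subunit and 3 to the stalk. Of the mitochondrial genes 48 carry names of the large (39S) subunit and 29 names of the small (28S) subunit.

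RNA was measured by sequencing in tissue macrophages of the heart, in Kupffer cells of the liver and in tissue macrophages of the kidney. All came from C57BL/6 mice aged 8 weeks, with no other treatment or allele named in the labels. The cells were sorted as CD11b+F4/80+Ly6G-Ly6C-, that is, as cells with 2 macrophage surface proteins and without a marker of neutrophils and one of inflammatory monocytes, and their total RNA was amplified with a kit for very small samples. There was 1 library for each tissue and the labels do not say how many mice were pooled, so no difference could be set against the spread between animals, and the values describe these 3 libraries. Where 3 values are given without a tissue, they are for heart, liver and kidney, always in this order.

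The cytosolic ribosome makes nearly all proteins of the cell. Most of its proteins are needed in equal numbers, and their mRNAs, among the most abundant of most cells, begin with a run of pyrimidines (the 5′ terminal oligopyrimidine or TOP motif) through which mTOR signalling sets their translation. The mitochondrial ribosome is built from rRNA made in the organelle and from proteins encoded in the nucleus, and it makes the few membrane subunits of the respiratory chain that mitochondrial DNA encodes. Macrophages of different tissues are known to differ in respiration and growth state, and both kinds of ribosome serve those activities.

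The 2 groups differed in sequence at their annotated starts. In RefSeq promoters of GRCm38.p6, a run of at least 8 C or T letters within 15 bases before and 15 after the annotated start was found at 38.7% of 75 cytosolic starts (63 genes). It was found at 12.2% of 74 mitochondrial starts (68 genes) and at 12.003% of all 32851 starts. The windows of 30 bases below belong to members with large differences between the libraries, with Rps6 as a member at one level throughout. They are written 5′ to 3′ on the gene's own strand, and capitals mark the longest run of C and T where it has at least 5 letters.
Rplp2 (chr7:141447636-141447665, + strand): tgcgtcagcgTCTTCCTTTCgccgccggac
Rps10 (chr17:27635230-27635259, - strand): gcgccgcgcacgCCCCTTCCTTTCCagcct
Rpl27a (chr7:109519180-109519209, + strand): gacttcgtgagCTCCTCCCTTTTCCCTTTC
Rpl18 (chr7:45718056-45718085, + strand): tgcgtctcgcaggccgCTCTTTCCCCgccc
Rpl28 (chr7:4792950-4792979, + strand): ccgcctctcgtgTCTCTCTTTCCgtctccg
Rps6 (chr4:86857353-86857382, - strand): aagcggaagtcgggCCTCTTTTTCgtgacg
Mrpl18 (chr17:12916077-12916106, - strand): cttgtagctttacccacagttaacatggct
Mrps11 (chr7:78783116-78783145, + strand): ggcgggtttaccgagtggaatgaaccattc
Mrpl28 (chr17:26123488-26123517, + strand): aggcgcacgttcggtgacgctattccggtt
Mrpl3 (chr9:105053253-105053282, + strand): aagtggcccggctgtgCTTTTCCTCCgcgg
The 6 cytosolic windows each hold a run across or just after the start, while of the 4 mitochondrial windows the one of Mrpl3 does. These windows are picked examples and do not stand for their groups, whose shares are given above. Among members with large differences that are not shown, the longest run had 5 letters for Rplp0, 10 for Mrpl44 and 8 for Mrps23. The 28 cytosolic genes with a run and the 33 without, among those compared below, had like differences between libraries. Their median of heart minus kidney was -0.31 and -0.18 on a log2 scale, and that of heart minus liver -0.14 and -0.13. In the whole 300 bases from 250 before to 50 after the start, on either strand, CCGGAAG, the core letters bound by ETS factors such as GABP, stood in 34.7% of cytosolic, 33.8% of mitochondrial and 8.86% of all promoters. AAGATGG, core letters of the YY1 motif, stood in 16%, 17.6% and 6.34%. Its first 3 letters can be the last 3 of the ETS core. TATAAA, the box bound by TBP, stood in 10.7%, 6.76% and 13.6%. A match is only a match of letters.

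Levels are given as RPKM as deposited, that is, reads scaled to 1000000 counted and to a kilobase of exon, so that genes of different length can be compared. The recovered depth was 14460607 to 16743403 reads per library, summed over all 34711 transcripts. In this sum a read can count for several transcripts of a gene. On 1 transcript per gene the totals were 8751978 to 10373696. Macrophage markers (6 of 6 at RPKM of at least 1 in every library) summed to 1706, 1812 and 1662 RPKM. Transcripts of other cells differed between the libraries. Markers of renal tubule summed to 0, 0 and 303 RPKM (all 6 at 0 in heart and liver). In kidney 3 of these 6 reached 1 RPKM, with Umod alone at 215. Markers of hepatocytes summed to 0.455, 155 and 0.22 RPKM (5 of 6 at 0 in heart and in kidney). Markers of endothelium summed to 4.30, 141 and 8.01 RPKM, of lymphocytes to 5.19, 156 and 0.049 RPKM, of fibroblasts to 130.1, 8.46 and 0.775 RPKM (Dcn alone 125, 8.15 and 0.48) and of cardiomyocytes to 12.1, 0.041 and 4.13 RPKM. These lists hold 4, 6, 5 and 6 genes. Stab2 of the liver sinusoid was at 0 in heart and kidney, and Cd3e and Cd3g of T cells were at 0 in heart and kidney. Ms4a1 of the same lymphocyte list stood at 2.09, 2.57 and 0 RPKM. Myh6 of the heart muscle was at 0.16 RPKM in heart (14 reads) and at 0 in liver and kidney. Myl2 of the same cardiomyocyte list stood at 5.98, 0 and 3.61 RPKM. Every cell of these kinds has ribosomes, and the part of these cells in the differences below was not tested. In bulk RNA fewer cells of a type and less RNA per cell cannot be told apart.

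Cytosolic ribosomal protein mRNAs were abundant in all 3 libraries and mitochondrial ones were not. The median of the 83 cytosolic genes was 160.1 RPKM for heart, 188 for liver and 196 for kidney. The median of the 77 mitochondrial genes was 7.12, 19.6 and 17.2 RPKM. Cytosolic genes took 1.62% of the reads on 1 transcript per gene for heart, 1.78% for liver and 1.90% for kidney, with exact 95% binomial (Clopper-Pearson) intervals of 1.62 to 1.63, 1.78 to 1.79 and 1.89 to 1.91. Mitochondrial genes took 0.302%, 0.552% and 0.400%, with intervals of 0.299 to 0.306, 0.547 to 0.556 and 0.396 to 0.404. These and all further intervals reflect the counting of reads alone, as copies made by PCR could not be recognised.

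The 2 groups therefore stood in different proportion in the 3 libraries. The ratio of the median cytosolic to the median mitochondrial RPKM was 22.5 for heart, 9.59 for liver and 11.4 for kidney. The ratio of the summed RPKM was 6.47, 3.98 and 6.26. By either measure the liver library had the most mitochondrial ribosomal protein RNA per cytosolic one. By sums the heart and kidney libraries were alike, while by medians heart stood apart from both. More than 2 reads per bp were found for 46, 58 and 61 of the 83 cytosolic genes. Of the 77 mitochondrial genes 3, 10 and 2 were read so densely. Per the file header the authors' counting limited the tags at a position. The part of this limit in these ratios and in the shares of reads above was not tested.

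**Figure D1:**
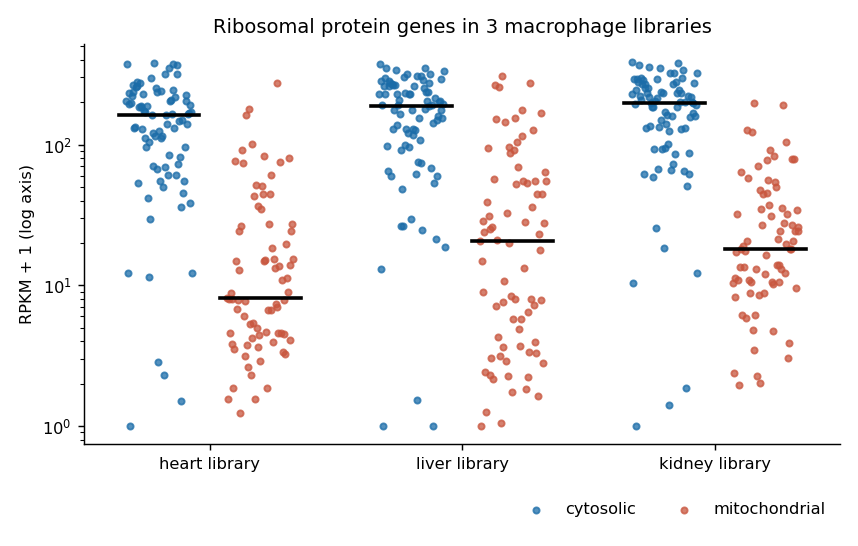
Levels of the 83 cytosolic and 77 mitochondrial ribosomal protein genes in each library, as RPKM + 1 on a log axis, with 1 point per gene and a black bar at the median. Cytosolic medians lie between 160.1 and 196 RPKM and mitochondrial ones between 7.12 and 19.6 RPKM, with the lowest mitochondrial median in the heart library.

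Among cytosolic genes the highest means over the 3 libraries belonged to Rpl32, Rpl4, Rps27, Rpl7 and Rps9. Rpl32, a 60S protein, stood at 370.5, 371 and 384 RPKM across the tissues, with 95% Poisson intervals of 357 to 385, 358 to 385 and 371 to 398. Rpl4, which lines part of the peptide exit tunnel, stood at 372, 351 and 378 RPKM. Rps27, a zinc-binding 40S protein, stood at 379, 315 and 347 RPKM. Rpl7 stood at 368, 316 and 339 RPKM. Rps9, of the 40S subunit, stood at 262, 350.3 and 368 RPKM, lower in heart than in the other libraries. Rps6, the 40S protein that S6 kinases phosphorylate, was at the same level in each library within counting error, at 192, 192 and 193 RPKM.

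Many cytosolic genes share sequence with other genes and with pseudogenes. In GENCODE M21 transcripts, matched by RefSeq identifier for 82 of 83 cytosolic and 77 of 77 mitochondrial genes, the median cytosolic gene shared 53.5% of its 50-base stretches with another gene. For mitochondrial genes this was 3.01%. These GENCODE transcripts also gave the GC contents and overlaps. They can differ in length from the RefSeq transcripts counted, as for Rpl12 (1242 against 629 bp) and Rpl35 (946 against 446 bp). A pseudogene was among the sharers for 79 cytosolic genes. The 5 that share a stretch with 50 or more pseudogenes, a number chosen after their values were seen, are Rpl7a, Rpl17, Rpl21, Rpl29 and Rps2. Their mean levels lay between 10.9 and 68.1 RPKM, with a median of 15.96, against a median of 185 for the other 77 matched genes. The share of stretches held in common went the other way. Mean levels had a median of 264 RPKM in the 5 genes with over 90% shared, 182 in the 42 with 50 to 90% and 162 in the 35 with less. The sources used here do not say how reads with several places were counted, and the part of this sharing in the levels was not tested. Overlap with another gene on either strand covered more than 10% of the exon bases of 14 cytosolic and 21 mitochondrial genes.

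Paralogs replace a core protein in some tissues, and most stood below their parent gene here. Rpl22l1, the paralog of Rpl22, was the exception. It stood at 239, 259 and 160.1 RPKM, and Rpl22 at 53.7, 58.6 and 60.6 RPKM, a ratio of 4.45, 4.42 and 2.64. Rpl22l1 had 1627, 2046 and 1173 reads on 471 bp, and Rpl22 had 1721, 2177 and 2089 reads on 2217 bp. The ratio thus depends on the lengths of the transcripts used. Rpl22l1 shared 65.6% of its 50-base stretches with other genes, and another gene lies antisense to 28.8% of its exon bases. Rps27l, a known p53 target, stood at 188, 128 and 131 RPKM, which is 0.495, 0.406 and 0.379 of Rps27. Rpl7l1 stood at 40.8, 90.4 and 58.0 RPKM and was 0.111, 0.286 and 0.171 of Rpl7. Its share was thus largest in liver. Rpl32l kept to 0.141, 0.158 and 0.159 of Rpl32. It is the cytosolic gene without a matched transcript, so the sequence it shares with Rpl32 was not measured. Rps4x, the X-linked gene of this 40S protein, stood at 317, 271 and 295 RPKM.

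The paralogs known from testis and striated muscle were near the limit of detection. Rpl10l, a testis retrogene, had 0 reads in each library. Rpl39l, known from testis, had 15, 7 and 5 reads. Rpl3l, the form of heart and skeletal muscle, had 10, 0 and 18 reads, and kidney was 1.68-fold over heart with an interval that includes 1 (0.733 to 4.06). Their parent genes Rpl10, Rpl39 and Rpl3 stood at 204, 227 and 227 RPKM, at 223, 200.2 and 201 RPKM and at 256, 283 and 294 RPKM.

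Differences between libraries were taken on log2(RPKM + 1), and a gene entered if any library had it at 1 RPKM or more. These were 11482 genes, among them 81 cytosolic and 76 mitochondrial members (not Rpl10l, Rpl3l or Mrps26). At least 2 log2 units is called 4-fold and at least 1 log2 unit 2-fold. On this scale the change of low genes is understated, and printed folds are ratios of RPKM with no added value.

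Most cytosolic ribosomal protein genes differed little between the libraries. Heart minus liver had a median of -0.13 log2 units over the 81 genes, beside -0.16 over all genes. Heart minus kidney had -0.22 beside -0.23, and kidney minus liver 0.01 beside 0.04. The sign of each cytosolic median depended on the scaling of the libraries: it was 0.12, 0.07 and -0.02 with median ratio scaling. Relative to the median of all genes the cytosolic median differed by 0.03, 0.01 and -0.03 log2 units, and by 0.12, 0.07 and -0.03 with that scaling. The largest and smallest of the 3 levels lay within 1.5-fold for 56 of 81 cytosolic genes (69.1%), 7 of 76 mitochondrial genes (9.21%) and 11.4% of all genes compared.

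**Figure D2:**
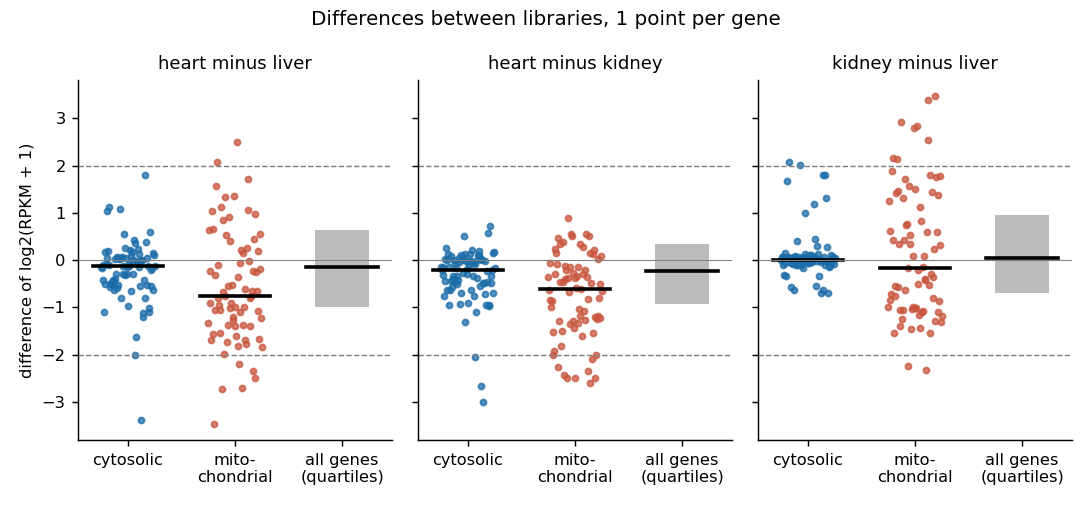
Differences of log2(RPKM + 1) between libraries, with 1 point per ribosomal protein gene (81 cytosolic, 76 mitochondrial), black bars at the medians, a grey box from the lower to the upper quartile of all 11482 genes, and dashed lines at 4-fold. Cytosolic genes crowd around 0 for kidney minus liver with a few above, while mitochondrial genes spread as widely as the box or wider.

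Few cytosolic members passed 4-fold. For heart minus liver none of 81 was higher and 1 was lower (Rpl29), where 5.33% of all genes were higher and 7.13% lower. For heart minus kidney none was higher and 3 were lower (Rpl18, Rpl29 and Rpl36), against 2.4% and 5.1% of all genes. For kidney minus liver 2 were higher (Rplp1 and Rps10) and none lower, against 7.57% and 5.1%. At 2-fold, heart minus liver had 4 members higher and 8 lower, where 17.9% of all genes were higher and 24.9% lower. Heart minus kidney had none higher and 5 lower, where the shares of all genes were 10.5% and 22.9%. Kidney minus liver had 8 higher and none lower, where they were 24.2% and 17.7%. In each comparison the share of cytosolic members past 2-fold in either direction, 14.8%, 6.17% and 9.88%, was below that of all genes, 42.9%, 33.5% and 41.9%.

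These genes were read densely. More than 2 reads per bp in some library were found for 62 of 81 cytosolic genes (76.5%), 10 of 76 mitochondrial genes (13.2%) and 8.20% of all genes, and per the file header the authors' counting limited the tags at a position. Rpl32 was densest, at 6.22 reads per bp in the liver library. This is above the 6 that a limit of 3 tags on each of 2 strands would allow, and some other genes reached up to 18.8, so how the limit acted is not known. The median size of the kidney minus liver difference, without its sign, was 0.06 log2 units in the 62 dense cytosolic genes and 0.32 in the other 19. Over all genes it was 0.62 in the dense and 0.84 in the others. For heart minus liver the size was 0.25 in the dense and 0.52 in the other cytosolic genes, beside 0.69 and 0.85 over all genes. For heart minus kidney the cytosolic order was the opposite, 0.30 in the dense and 0.27 in the others, beside 0.42 and 0.68 over all genes. The part of the limit in the even cytosolic levels was not tested.

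The clearest pattern among cytosolic genes was that of the stalk. Rplp0, Rplp1 and Rplp2 form the flexible arm of the 60S subunit that recruits the elongation factors. Rplp1 stood at 104 RPKM for heart, 47.3 for liver and 203 for kidney. Rplp2 stood at 131, 63.7 and 206 RPKM and Rplp0 at 129, 96.0 and 221 RPKM. All 3 were thus highest in kidney and lowest in liver. Kidney stood over liver by 4.28-fold for Rplp1 (counting interval 3.82 to 4.82), 3.23-fold for Rplp2 (2.90 to 3.59) and 2.30-fold for Rplp0 (2.19 to 2.42). Heart lay between, over liver by 2.19-fold for Rplp1, 2.06-fold for Rplp2 and 1.35-fold for Rplp0. The median of the 3 genes was 1.674 log2 units for kidney minus liver, beside -0.02 for the 47 other 60S genes compared and 0.05 for the 31 genes of 40S.

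Other cytosolic members had the same order of libraries as the stalk. Kidney was the highest library for 37.3% and liver the lowest for 34.8% of all genes, and the share with both was not computed. Rps10, a protein of the 40S head, stood at 44.2, 20.4 and 85.7 RPKM, 4.21-fold higher in kidney than in liver (3.59 to 4.95). Another annotated gene covers 63.6% of its exon bases. Rpl8, a core protein near the peptidyl transferase centre, stood at 139.5, 107 and 269 RPKM, 2.50-fold higher in kidney than in liver (2.36 to 2.66). Rpl27a, also of the 60S subunit, was low in liver alone. It stood at 84.0, 23.6 and 84.9 RPKM, so that heart was 3.56-fold (3.20 to 3.98) and kidney 3.60-fold (3.24 to 4.02) over liver.

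A further set of 60S genes was lowest in the heart library. Rpl29, a small protein on the surface of the subunit, stood at 1.87 RPKM in heart (19 reads, interval 1.12 to 2.91), 28.8 in liver and 17.3 in kidney. Liver was 15.4-fold (9.72 to 25.9) and kidney 9.25-fold (5.76 to 15.7) over heart. Rpl29 is one of the 5 genes with many pseudogenes. Rpl36 stood at 10.5, 25.5 and 91.7 RPKM, 8.72-fold higher in kidney than in heart (6.69 to 11.5). Its 3 levels are well apart, with kidney also 3.60-fold over liver (3.03 to 4.30). Rpl18 stood at 37.6, 153 and 159 RPKM, so that liver and kidney were alike and 4.07-fold (3.64 to 4.57) and 4.24-fold (3.78 to 4.76) over heart. On the log2 scale its difference was -1.997 from liver, just short of 4-fold, and -2.05 from kidney, just past it. Rpl28 stood at 59.7, 188 and 129 RPKM. Rpl13 stood at 49.0, 60.9 and 123 RPKM, and at -1.31 log2 units it was the first gene outside 4-fold for heart minus kidney. For Rpl13 heart and liver were nearer, at -0.31 log2 units, and kidney was 2.02-fold over liver (1.86 to 2.21).

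**Figure D3:**
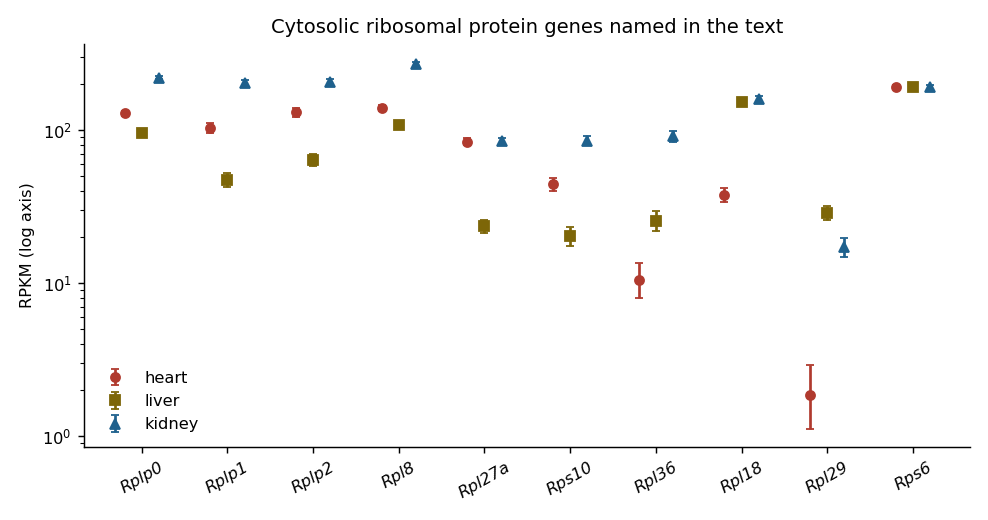
RPKM of 10 cytosolic genes on a log axis, with exact 95% Poisson intervals of the counts. The 3 stalk genes, Rpl8 and Rps10 are highest in kidney and lowest in liver, and Rpl27a is low in liver. Rpl18, Rpl29 and Rpl36 are lowest in heart, and Rps6 stays between 192 and 193 RPKM.

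No cytosolic member was higher in heart than in kidney by 2-fold. The largest differences of this comparison were those of Rpl39l at 0.71, which rests on 15 and 5 reads, Rpl22l1 at 0.57 and Rps27l at 0.51 log2 units. Of kidney minus liver the lowest were Rpl29 at -0.70, Rpl22l1 at -0.69 and Rpl21 at -0.63. Counted over the 81 genes, the heart library was lowest for 44 and highest for 14, the liver library highest for 34 and the kidney library for 33. These are 54.3%, 17.3%, 42.0% and 40.7%, beside 41.6%, 23.5%, 39.2% and 37.3% of all genes. Heart minus liver was below 0 for 38 of 47 genes of 60S (median -0.17) and for 14 of 31 of 40S (median 0.02). Over all genes 6275 of 11482 were below 0 (median -0.16). Heart minus kidney was below 0 for 35 of the 47 (median -0.20) and for 21 of the 31 (median -0.16). Over all genes it was below 0 for 6837 of 11482 (median -0.23), so that the subunits leaned alike there, with medians near that of all genes.

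Mitochondrial ribosomal protein genes covered a wide range of levels within each library. Mrpl33, a small 39S protein, had the highest mean and stood at 272, 275 and 191 RPKM. Another gene covers 37.0% of its exon bases. Mrpl42 stood at 179.5, 305 and 196 RPKM, Mrps18c, of the 28S subunit, at 161, 258 and 123 RPKM, Mrps21 at 90.3, 264 and 126 RPKM and Mrpl24 at 79.0, 168 and 78.3 RPKM. All 5 were highest in liver, Mrpl33 by less than its counting error. At the other end Mrpl38 had 11, 0 and 30 reads, at least 10.8-fold higher in kidney than in liver against a floor of 3 reads per library. Mrps26 had 12, 4 and 14 reads and Mrps34 had 7, 19 and 14 reads. RPKM was below 10 for 42 of the 77 genes in heart, 34 in liver and 24 in kidney.

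In heart against liver the mitochondrial group was lower in heart. The median of 76 genes was -0.76 log2 units, 0.61 below that of all genes, and 54 genes lay below 0, beside 6275 of 11482 genes of all kinds. It was 0.51 below with median ratio scaling. At 4-fold 2 genes were higher and 6 lower, together 10.5% of the 76, beside 12.5% of all genes. At 2-fold 9 were higher and 30 lower, together 51.3%, beside 42.9% of all genes. The 39S and 28S genes had like medians, -0.76 and -0.74.

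The 6 genes past 4-fold on the liver side came from both subunits. Mrps11, a protein of the 28S platform, stood at 2.54 RPKM in heart, 38.1 in liver and 12.5 in kidney, 15.02-fold higher in liver than in heart (10.8 to 21.4). Mrpl44, which has a fold related to RNase III, stood at 2.15, 19.9 and 7.85 RPKM, 9.28-fold (6.81 to 12.95). Both had kidney between the others. Mrpl18, of the central protuberance, stood at 26.3, 177 and 81.7 RPKM, 6.70-fold higher in liver than in heart (6.01 to 7.497), with 363 reads or more in every library. Mrpl22, near the tunnel exit, stood at 6.86, 43.4 and 17.2 RPKM, Mrpl55 at 9.95, 54.5 and 31.0 RPKM and Mrps18b at 14.2, 68.6 and 30.1 RPKM. All 6 kept the order liver, kidney, heart, from highest to lowest. Another gene lies antisense to 59.1% of the exon bases of Mrps18b and 16.4% of those of Mrps11.

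Mrpl52 and Mrpl39, both of the 39S subunit, were the 2 past 4-fold on the heart side. Mrpl52 stood at 43.7 RPKM in heart, 6.93 in liver and 55.3 in kidney, and Mrpl39 at 11.8, 2.05 and 12.5 RPKM. Both were low in liver only. Heart was 6.31-fold over liver for Mrpl52 (4.61 to 8.80) and 5.75-fold for Mrpl39 (4.38 to 7.67). Mrpl15 had the next largest difference on the heart side, 1.72 log2 units, at 6.38, 1.24 and 12.1 RPKM. On the liver side Mrps31 was the gene just outside 4-fold, at -1.99 log2 units.

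In heart against kidney the mitochondrial group was again lower in heart. The median was -0.60 log2 units, 0.37 below that of all genes and 0.33 below with median ratio scaling. At 4-fold none was higher and 10 were lower, which is 13.2% of the 76 beside 5.1% of all genes. Counted in either direction the share of all genes was 7.499%, and the excess of members over it did not hold under 3 other settings. With a pseudocount of 5 there were 0 members past 4-fold in either direction, beside 1.86% of all genes. With 0.1 there were 13 beside 20.5%, and with TPM scaling 10 beside 16.4%. The share of all genes lower by 4-fold was not computed for these settings. At 2-fold none was higher and 29 were lower, beside 10.5% and 22.9% of all genes. The largest positive differences were small, 0.88 for Mrpl3, 0.56 for Mrpl13 and 0.55 for Mrpl50. The kidney library holds tubule transcripts at 303 RPKM in sum, which the heart library lacks, and tubule cells are rich in mitochondria. Umod alone made 215 of this sum, and 3 of the 6 markers reached 1 RPKM. The part of tubule cells in this difference was not tested.

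Of the 10 genes low in heart against kidney, 5 carry 39S names. Mrpl2, the homolog of the core protein uL2, stood at 2.23, 0.643 and 17.2 RPKM. Mrpl28 stood at 6.01, 2.37 and 34.4 RPKM. For these 2 liver was lower still. Mrpl4 stood at 1.90, 4.77 and 15.4 RPKM, Mrpl49 at 3.59, 6.23 and 18.7 RPKM, and Mrpl54 at 3.57, 6.98 and 26.8 RPKM, with heart lowest and kidney highest. Kidney was 7.69-fold over heart for Mrpl2 (5.35 to 11.4), 8.13-fold for Mrpl4 (5.72 to 11.9) and 7.53-fold for Mrpl54 (5.14 to 11.4).

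The other 5 carry 28S names. Mrps2 stood at 1.30, 6.66 and 12.005 RPKM and Mrps22 at 0.229, 1.14 and 4.85 RPKM, the latter on 4, 23 and 91 reads. Both are proteins of the small subunit, and mutations of MRPS22 are known from mitochondrial disease. Mrps27, a protein with pentatricopeptide repeats, stood at 7.01, 22.8 and 31.0 RPKM and Mrps31 at 3.99, 18.9 and 25.7 RPKM, so that liver was nearer to kidney. Mrps18a, which despite its symbol is a part of the 39S subunit, stood at 18.5, 22.2 and 77.5 RPKM. Mrps27 was the member just inside 4-fold, at -2.0004 log2 units, and Mrps11 the one just outside, at -1.93.

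In kidney against liver the mitochondrial genes split in both directions. The median was -0.16 log2 units, 0.19 below that of all genes, with 37 genes above 0 and 39 below, and it turned to 0.33 over the 66 genes of at most 2 reads per bp in every library. The quartiles were -1.01 and 1.32, wider apart than the -0.70 and 0.96 of all genes and far wider than the -0.07 and 0.07 of cytosolic genes. At 4-fold 8 were higher and 2 lower, beside 7.57% and 5.1% of all genes. At 2-fold 22 were higher and 20 lower, beside 24.2% and 17.7%.

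The direction went with the level of the gene, taken as the mean over the same 3 libraries. The 76 genes were divided at their median mean level of 16.8 RPKM. Of the 38 genes above it 32 were lower in kidney than in liver (median -0.93). Of the 38 below it 31 were higher in kidney (median 1.18). Among all genes divided at the same level the medians were -0.14 for the 3188 above and 0.13 for the 8294 below, the same signs at a far smaller size. The other comparisons split too. For heart minus liver the medians were -1.09 above and 0.06 below the division, and for heart minus kidney -0.29 and -1.13. Most of the abundant mitochondrial genes were thus higher in liver, and most of the scarce ones higher in kidney. The median GC content was 49.8% above and 51.8% below the division, and the median exon length was 939 bp above and 1403 bp below the division.

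Genes higher in kidney than in liver were led by Mrpl2 at 26.7-fold (14.7 to 54.2, on 273 and 11 reads), Mrps7 at 15.7-fold (9.76 to 27.0), Mrpl34 at 14.8-fold (7.26 to 35.1) and Mrpl28 at 14.5-fold (10.6 to 20.4). Mrps7, a protein of the 28S head, stood at 2.94, 0.816 and 12.8 RPKM and Mrpl34 at 3.45, 0.744 and 11.02 RPKM. Mrps23 stood at 2.81, 1.42 and 9.90 RPKM. With Mrpl15, Mrpl39 and Mrpl52 they make the 8 past 4-fold, and liver was the lowest library for each of them. The 2 lower in kidney were 39S genes. Mrpl3 stood at 3.19, 9.79 and 1.27 RPKM, 7.71-fold higher in liver than in kidney (5.27 to 11.7), and Mrpl50 at 14.4, 52.0 and 9.50 RPKM, 5.47-fold (4.85 to 6.19). Mrpl41 came next, at 12.7, 34.7 and 11.3 RPKM.

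**Figure D4:**
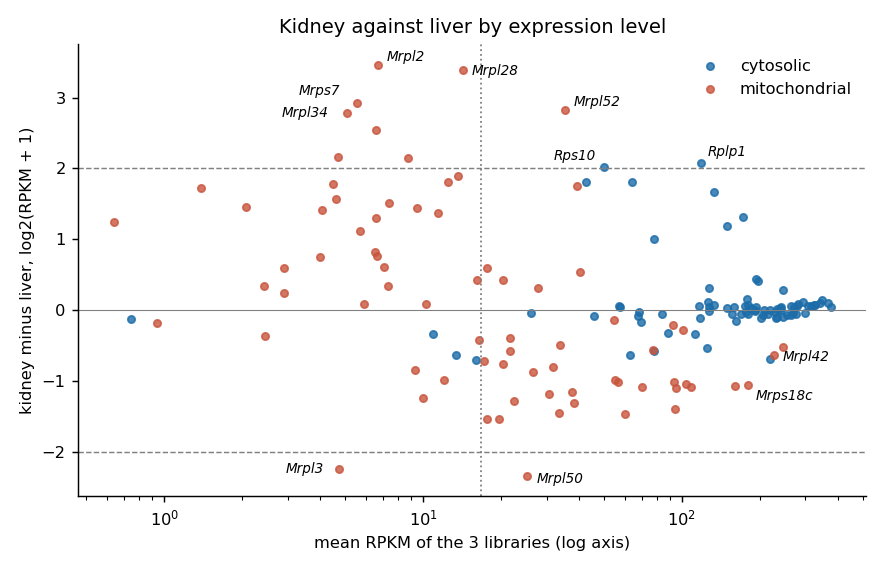
Kidney minus liver difference of log2(RPKM + 1) against the mean RPKM of the 3 libraries on a log axis, with 1 point per gene, dashed lines at 4-fold and a dotted line at the median level of mitochondrial genes, 16.8 RPKM. Mitochondrial genes left of the dotted line lie mostly above 0 and those right of it mostly below, while cytosolic genes lie near 0 apart from a few such as Rplp1 and Rps10.

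Side by side, both groups often had their lowest level in the heart library, and they differed in how often it was the highest. The heart library was lowest for 44 of 81 cytosolic and 40 of 76 mitochondrial genes, beside 41.6% of all genes. It was highest for 14 cytosolic but only 3 mitochondrial genes, beside 23.5% of all genes. Liver was highest for 38 and kidney for 35 mitochondrial genes (50% and 46.1%), beside 39.2% and 37.3% of all genes. As a description across genes, which are not independent, Pearson's r of log2(RPKM + 1) between kidney and liver was 0.91 over 81 cytosolic and 0.80 over 76 mitochondrial genes. Between heart and kidney it was 0.91 and 0.87. The points share the 3 libraries and gene lengths.

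The heart minus kidney difference moved with base composition. Across 80 cytosolic genes Spearman's rho with the GC content of the matched GENCODE transcript was -0.72 (Pearson's r -0.70). It was -0.37 by both measures across 76 mitochondrial genes, and -0.33 (r -0.28) across 11290 genes of all kinds. Above 55% GC the median difference was -0.94 log2 units in 13 cytosolic genes, -1.38 in 18 mitochondrial genes and -0.80 in 2223 genes of all kinds. Up to 45% GC it was 0.35 in 6 cytosolic, -0.35 in 11 mitochondrial and 0.12 in 2889 genes of all kinds. Rpl36, Rpl18 and Rpl29, the cytosolic genes past 4-fold here, have 60.8%, 58.3% and 56.8% GC, among the highest of the group. Of the 5 cytosolic genes lower by 2-fold in heart, 4 are among the 13 above 55% GC. Of genes of all kinds above 55% GC, 921 of 2223 were lower by 2-fold in heart. The part of base composition in these differences was not tested. For heart minus liver rho was -0.38 in cytosolic, 0.08 in mitochondrial and -0.24 in all genes. For kidney minus liver rho was 0.13 in cytosolic, 0.24 in mitochondrial and 0.01 in all genes (Pearson's r 0.36, 0.31 and 0.02). Of the 8 cytosolic genes higher by 2-fold in kidney than in liver, 5 are among the 13 above 55% GC. Among genes of all kinds above 55% GC, 650 of 2223 were higher by 2-fold. The mitochondrial median of kidney minus liver was -0.56 up to 45% GC, -0.42 from 45 to 50%, 0.16 from 50 to 55% and 1.18 above 55%. The all-gene median above 55% was 0.08.

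**Figure D5:**
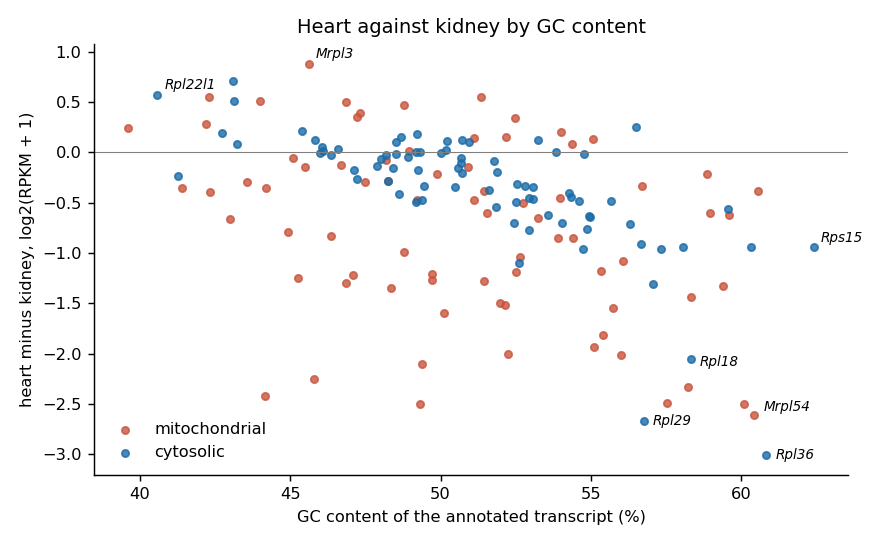
Heart minus kidney difference of log2(RPKM + 1) against the GC content of the annotated transcript in percent, with 1 point per gene. Cytosolic genes slope down to Rpl36 at 60.8% GC, and mitochondrial genes scatter widely, 17 of 76 above 0.

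Ribosomal proteins whose symbols fall outside the pattern had medians below 0 in heart against liver. Of the 6 cytosolic ones the median was -0.76 log2 units for heart minus liver, beside -0.64 when kidney took the place of liver, and 0.03 for kidney minus liver. Rpsa, a 40S protein that also acts as laminin receptor, stood at 41.8, 98.8 and 102 RPKM. Rps27rt, a near copy of Rps27, stood at 386, 321 and 353 RPKM. Of the 6 mitochondrial ones medians were -0.68, -0.78 and -0.12. Ict1, a peptidyl-tRNA hydrolase in the 39S subunit, stood at 15.9, 11.2 and 48.2 RPKM and Aurkaip1, of the 28S subunit, at 11.1, 15.1 and 48.9 RPKM. Chchd1 and Ptcd3, both of the 28S subunit, were highest in liver, at 122, 180.4 and 91.3 RPKM and at 8.86, 18.7 and 16.1 RPKM.

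Among other mRNAs of the TOP class and the elongation factors few genes passed 2-fold. In this and the following lists the shares of all genes higher and lower by 2-fold are 17.9% and 24.9% for heart minus liver, 10.5% and 22.9% for heart minus kidney, and 24.2% and 17.7% for kidney minus liver. Of 15 genes, 1 was higher and 2 lower by 2-fold for heart minus liver, none and 2 were for heart minus kidney, and 1 and none were for kidney minus liver. The medians were 0.05, 0.08 and -0.04. Eef1a1, which delivers aminoacyl-tRNA, stood at 377, 322 and 357 RPKM. Eef2, the translocase that binds at the stalk, stood at 57.1, 128 and 176 RPKM, low in heart. Eif3h, a subunit of initiation factor 3, stood at 101, 43.1 and 177 RPKM, the order of the stalk genes. Eef1d, a subunit of the exchange factor of Eef1a1, stood at 32.7, 75.9 and 60.01 RPKM, and Npm1, a nucleolar chaperone, at 259, 245 and 238 RPKM.

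Genes that build the ribosome in the nucleolus leaned to lower values in heart. Of 29 compared, 1 was higher and 11 lower by 2-fold for heart minus liver (median -0.58, beside -0.16 of all genes), 2 and 10 for heart minus kidney (-0.68 beside -0.23), and 7 and 4 for kidney minus liver (-0.16 beside 0.04). Nop2, an rRNA methyltransferase, stood at 1.78 RPKM in heart, 37.3 in liver and 13.8 in kidney. Bop1, of the PeBoW complex, stood at 0.647, 0.121 and 4.47 RPKM, and Nop10, the most abundant of the list, at 137, 209.9 and 140.4 RPKM. Nop58, a core protein of box C/D snoRNPs, went the other way, at 101, 14.0 and 36.9 RPKM, while its partner Nop56 stood at 55.2, 112 and 72.8 RPKM.

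Factors of mitochondrial translation and ribosome assembly had medians below those of all genes in the heart comparisons. Of 21 compared, 1 was higher and 6 lower by 2-fold for heart minus liver (median -0.40), none and 9 for heart minus kidney (-0.79), and 6 and 4 for kidney minus liver (0.40). The 6 lower for heart minus liver and both counts for kidney minus liver are near the shares of all genes. Tfb1m, which methylates the small rRNA of the mitochondrion, stood at 0.782, 15.1 and 5.19 RPKM. Mtif2, an initiation factor, stood at 4.93, 0.584 and 11.1 RPKM. Mtrf1, a release factor, was high in liver alone, at 2.51, 27.5 and 3.41 RPKM. The most abundant of the list were Mterf3 at 31.5, 15.5 and 43.7 RPKM and Eral1, which chaperones the small rRNA, at 7.94, 14.9 and 25.5 RPKM.

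Among regulators of these genes, Myc had the largest difference. It drives ribosome biogenesis and stood at 7.28 RPKM in heart, 1.20 in liver and 33.4 in kidney. Of 16 regulators compared, 4 were higher and 2 lower by 2-fold for heart minus liver (median -0.11), none and 6 for heart minus kidney (-0.63), and 5 and 1 for kidney minus liver (0.71). Gabpa, the ETS subunit of GABP, stood at 15.7, 4.98 and 9.30 RPKM and Yy1 at 11.3, 3.94 and 15.5 RPKM, both lowest in liver. Eif4ebp1, the translational repressor that mTOR inactivates, stood at 4.82, 12.5 and 18.5 RPKM, Rps6kb2, an S6 kinase, at 1.03, 3.04 and 6.06 RPKM, and Ppargc1a, the coactivator of mitochondrial biogenesis, was at 0 in heart and liver and at 2.31 RPKM in kidney.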

How the data were processed

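RNA was sequenced from sorted macrophages of 3 tissues, with 1 library for each. The authors deposited RPKM per RefSeq transcript, computed per the file headers with the HOMER program analyzeRepeats.pl over exons on both strands of mm10 with the option -pc 3, which caps the tags at one position. The header names the columns FPKM although the command asks for RPKM. The submitters' processing notes name CASAVA and STAR without a version.

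RPKM times length gave whole reads: all low values of up to 500 reads (15236, 12075 and 14159) lay within 0.1 of a whole read. On 1 transcript per gene this left 8751978, 10373696 and 9485368 reads for heart, liver and kidney. The longest coding transcript of each symbol was kept (21 members had several). Differences are of log2(RPKM + 1) over genes with RPKM of at least 1 in a library, and at least 2 units count as 4-fold. With 1 library per tissue no count model or other test was run and no p-values are given. Intervals are exact 95% Poisson intervals of reads for levels, exact binomial ones for ratios and shares of reads. The steps were tested on simulated data. Transcript sequences and overlaps came from GENCODE M21 and promoters from RefSeq (GRCm38.p6), in Python 3.11.15 with numpy 2.4.6, pandas 2.3.3, scipy 1.17.1 and matplotlib 3.10.9.

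The members and gene lists were chosen with earlier results of these data known. The lists hold ribosomal proteins with other symbols, TOP and elongation genes, nucleolar and mitochondrial biogenesis genes, regulators, and markers of macrophages and 6 other cell types. Rack1 (listed as Gnb2l1) and Era1 were not found. Named genes are the 5 highest and 3 lowest by mean, the 3 largest differences each way per group and comparison, all past 4-fold, the stalk, paralogs with their parents, and the most changed and most abundant of each list. A gene of the lists that this rule chose is not reported here. Markers of cell types are given in sums, and Rpl7a, Rpl8, Rpl13, Rpl17, Rps2, Rps6, Yy1, Gabpa, Ppargc1a, Cd3e, Ms4a1, Myh6, Myl2 and Umod were added after their values were seen. Alternatives were pseudocounts of 0.1 and 5, TPM and median ratio scaling, no filter, the shortest transcript, and only genes of at most 2 reads per bp.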

Additional observations from a re-analysis of the deposited data

How the results depend on the processing

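The directions of the mitochondrial medians for heart minus liver and heart minus kidney were the same under all 7 alternatives, and with median ratio scaling the latter moved from -0.60 to -0.33 log2 units. The mitochondrial median for kidney minus liver, -0.16, was 0.33 when only the 66 genes of at most 2 reads per bp were kept. Cytosolic medians depended on the scaling. With TPM scaling heart minus liver had 0.054 and kidney minus liver 0.13. Median ratio scaling gave 0.12, 0.065 (heart minus kidney) and -0.022 (kidney minus liver), and the 19 cytosolic genes of at most 2 reads per bp gave -0.080 for kidney minus liver. Counts past 4-fold moved most with the pseudocount. With 5, cytosolic genes past 4-fold numbered 1 for heart minus kidney, 0 for kidney minus liver, and mitochondrial ones 4, 0 and 2 in the 3 comparisons, beside 4.05%, 1.86% and 3.41% of all genes. With 0.1, mitochondrial genes for heart minus liver were 15 and cytosolic ones 2, beside 28.5% of all genes. Cytosolic genes for heart minus liver were also 2 with TPM and with median ratio scaling, and for kidney minus liver 1 with median ratio scaling and 1 at low density. Of 34 single differences past 4-fold, 34, 8, 33 and 28 remained with pseudocounts of 0.1 and 5, TPM and median ratio scaling. Signs were checked for 174 single differences, which do not cover all members. Of these, 84 were past 2-fold and none changed sign. No paired analysis was possible because each tissue has 1 library.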
